A study of Mus musculus with 10 samples.

Results

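The gamma chain repertoire of wild-type epidermal T cells was described from 1 library of rearranged Tcrg transcripts. Its members were all 67 clonotypes listed for that library, each a distinct combination of V segment, J segment and CDR3 nucleotides, out of 29548 clonotypes listed for the 10 libraries of the series. They held 180315 of the series' 732523 reads. The study sequenced T cell receptor transcripts from sorted T cells of mouse ear skin and lymph node, taken from wild-type mice and from Tcrd-/- mice, which lack gamma delta T cells. The wild-type cells (C57BL/6-N/Crl) were sorted from epidermis as living CD45+ cells with high CD3 and high TCRγδ. The background for clonality was 3 libraries of Tcrb transcripts from epidermis of Tcrd-/- mice (B6.129P2-Tcrdtm1Mom/J), whose cells were sorted for high CD3 and high TCRβ in place of TCRγδ. Per the labels, each library pooled the cells of 5 to 18 animals and was copied by 5′ RACE and amplified by PCR. No value per animal exists, the ages of the animals were not given in the labels used here, and the gamma chain library had no replicate, so its values carry counting intervals and no test.

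Dendritic epidermal T cells are the gamma delta T cells that reside in mouse epidermis, where they survey keratinocytes and take part in wound repair. They arise from an early wave of the fetal thymus and are known for carrying one invariant gamma chain, TRGV5 joined to TRGJ1, with almost no sequence variation at the junction. A gamma chain gene is made by cutting a V and a J segment and joining them. Bases can be lost from each end, and short palindromic additions can be copied from an untrimmed end. Other additions are made without template by terminal transferase, an enzyme with little activity in the fetal thymus. Short runs of bases that both ends share can guide the joint. The CDR3 (complementarity-determining region 3) is the stretch across this joint, from the conserved cysteine of the V segment to the conserved phenylalanine of the J segment.

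The sequences below carry the main joint of the library. The first pair are the germline ends of the CDR3 in GENCODE gene models of mouse build GRCm38, from the plus strand: the TRGV5 exon end at chr13:19192709-19192725 (gene Tcrg-V5) and the TRGJ1 start at chr13:19210343-19210368 (gene Trgj1), both coding exon sequence. In the clonotypes, capitals mark the bases that belong to the J segment alone, and lower case marks the V segment, bases shared by both ends, and anything between them. Shown first are the 5 most abundant TRGV5 sequences, then 3 with palindromic additions, and last the most trimmed at the V end and the most trimmed at the J end among the clonotypes of 10 reads or more made of germline and palindromic bases only.
TRGV5 germline end: tgtgcctgctgggatct
TRGJ1 germline start: atagctcaggttttcacaaggtattt
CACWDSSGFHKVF, 162324 reads: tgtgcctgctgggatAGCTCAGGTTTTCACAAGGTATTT
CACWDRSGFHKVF, 9595 reads: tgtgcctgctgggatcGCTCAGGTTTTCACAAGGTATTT
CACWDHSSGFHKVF, 3812 reads: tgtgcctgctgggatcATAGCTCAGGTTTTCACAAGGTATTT
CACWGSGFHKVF, 694 reads: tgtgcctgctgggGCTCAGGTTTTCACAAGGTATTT
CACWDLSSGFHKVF, 677 reads: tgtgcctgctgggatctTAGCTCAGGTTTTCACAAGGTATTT
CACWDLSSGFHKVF, 154 reads: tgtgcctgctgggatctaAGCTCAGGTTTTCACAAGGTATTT
15-residue CDR3, 382 reads: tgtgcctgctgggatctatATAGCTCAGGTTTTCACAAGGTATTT
15-residue CDR3, 250 reads: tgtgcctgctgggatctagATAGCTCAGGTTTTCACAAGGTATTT
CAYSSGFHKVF, 178 reads: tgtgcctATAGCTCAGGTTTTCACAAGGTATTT
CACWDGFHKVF, 54 reads: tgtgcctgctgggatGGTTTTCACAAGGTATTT

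The segments that mark these cells were checked first. TRGV5 held 99.4% of reads and TRGJ1 held 99.6%, so the library matched its label. TRGV6, the segment of fetal-derived gamma delta T cells of dermis and other tissues, TRGV7, the segment of intestinal epithelial gamma delta T cells, and TRGV3 were not listed. Taking 3 counts as the upper limit of a count of 0, this depth allowed a share of up to 0.00166% each. These limits rest on the deposited V assignment. The germline CDR3 ends of TRGV1 and TRGV3 are identical over all 17 bases. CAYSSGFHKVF (178 reads), listed with TRGV5, matches TRGV7 as far as TRGV5, over 7 bases. No listed CDR3 began with the first 9 bases of the germline TRGV6 end.

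TRGV5 was almost always read with the J segment next to it. The TRGV5-TRGJ1 pair held 179105 reads in 42 clonotypes, or 99.3% of the library (exact Clopper-Pearson 95% interval 99.3 to 99.4%). TRGV5 was also read with TRGJ2 in 1 clonotype of 93 reads and with TRGJ3 in 1 clonotype of 27 reads, and with TRGJ4 in none. TRGV4, which lies in the same gene cluster as TRGV5 and marks other skin gamma delta T cells, was paired only with TRGJ1, in 493 reads and 4 clonotypes. TRGV2 was paired only with TRGJ2, in 289 reads and 8 clonotypes, and TRGV1 mostly with TRGJ4, in 249 of its 308 reads (80.8%, interval 76.0 to 85.1%). These are the J segments of the clusters in which each V segment lies. The exceptions to the cluster rule were the 2 TRGV5 clonotypes above and 59 TRGV1 reads, of which 58 were 1 clonotype with TRGJ2 and 1 was a single read with TRGJ1. The CDR3 of both these TRGV1 clonotypes matches TRGV1, TRGV2 and TRGV3 equally far, over 11 bases, so these exceptions and the 80.8% rest on the deposited V assignment. The J assignment was also used as deposited. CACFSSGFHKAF, a single read listed as TRGV5-TRGJ1, carries the bases at which germline TRGJ2 differs from TRGJ1. The reads were amplified by PCR with no molecular identifiers named, so a read is not an independent molecule and the intervals and limits here cover counting error only.

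**Figure D1:**
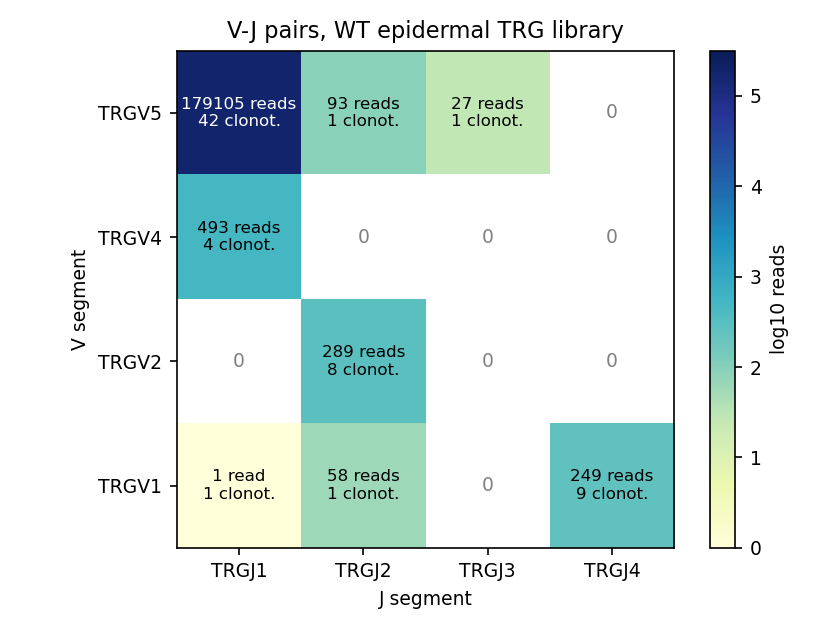
Reads (colour, log10 scale) and number of clonotypes for each pair of V segment (rows) and J segment (columns) in the wild-type epidermal gamma chain library. TRGV5-TRGJ1 holds 179105 of 180315 reads, and 8 of the 16 possible pairs are filled.

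The largest clonotype, the canonical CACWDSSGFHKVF, stood 16.9-fold above the second, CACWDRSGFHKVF, which stood 2.52-fold above the third, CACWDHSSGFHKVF. A gap of 5.49-fold then separated the third from the fourth, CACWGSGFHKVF, at 694 reads or 0.385% of the library. Outside the canonical sequence, TRGV5 held 16901 reads in 43 clonotypes, and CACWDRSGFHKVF and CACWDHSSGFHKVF made up 79.3% of these reads (interval 78.7 to 79.9%). All 3 carry the start CACWD, which 9 of the 18 TRGV5-TRGJ1 clonotypes with 10 reads or more share. TRGV5 CDR3s with the end SGFHKVF, which TRGJ1 and TRGJ2 both encode, made up 99.3% of the library's reads. Of the 20 TRGV5 clonotypes with 10 reads or more, those ranked after the fourth ranged from 13 to 677 reads. The TRGV5 reads thus had 1 dominant sequence, 2 of intermediate abundance, and a tail of at most 0.385% each.

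The canonical joint lies on a 2-base repeat. TRGV5 matched it up to 2 bases before its end and TRGJ1 matched it from its first base, with the bases at common to both, so that 3 combinations of V and J trimming give the same 39 bases. The germline ends hold 43 bases together, and the canonical CDR3 was 4 bases shorter than their sum. The second sequence, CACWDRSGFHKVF, also lost 4 bases, but 1 from TRGV5 and 3 from TRGJ1, with no shared base. It differs from the canonical sequence by the single substitution A16C, counted from 1 at the first CDR3 base. The third, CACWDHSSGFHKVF, lost 1 base from TRGV5 and none from TRGJ1. All 3 were made of germline bases alone.

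Most of the other TRGV5 sequences could also be read from the germline ends base by base. By the longest exact match to each end, 4 of the 20 TRGV5 clonotypes with 10 reads or more had bases shared by V and J, and these held 90.7% of the reads of the 20. A further 10 were direct joints with no shared base (8.79% of reads), and 3 had palindromic bases next to an untrimmed end and nothing else (0.439%). The remaining 3 had other bases and held 74 reads (0.0413%). Thus 17 of 20, with 99.96% of the reads, needed no base outside germline and palindromic sequence. Among the clonotypes of TRGV1, TRGV2 and TRGV4 with 10 reads or more, 12 of 13 needed none.

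Trimming differed between the ends by clonotype. The 15 TRGV5-TRGJ1 clonotypes with 10 reads or more and no other bases had lost a median of 2 bases from TRGV5 (range 0 to 10) and of 1 base from TRGJ1 (range 0 to 8), with shared bases counted to both segments. By this count TRGJ1 was untrimmed in 6 of the 15, which held 93.4% of their reads, and had lost 3 bases in 4, which held 5.88%. Most reads of the 6 were the 162324 of the canonical sequence. Its 3 combinations of trimming differ in the bases lost from each end, so its own losses cannot be assigned. TRGV5 was untrimmed in 4, whose reads came to 0.817%, and by the same count had lost 3 bases in none. Among the 15, the longest loss from TRGV5, 10 bases, gave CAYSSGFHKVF (178 reads), which lacks the second cysteine of the canonical CDR3. The longest loss from TRGJ1, 8 bases, gave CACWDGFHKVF (54 reads). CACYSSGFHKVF (177 reads) lost 7 bases from TRGV5 and, like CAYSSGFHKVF, kept TRGJ1 whole.

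**Figure D2:**
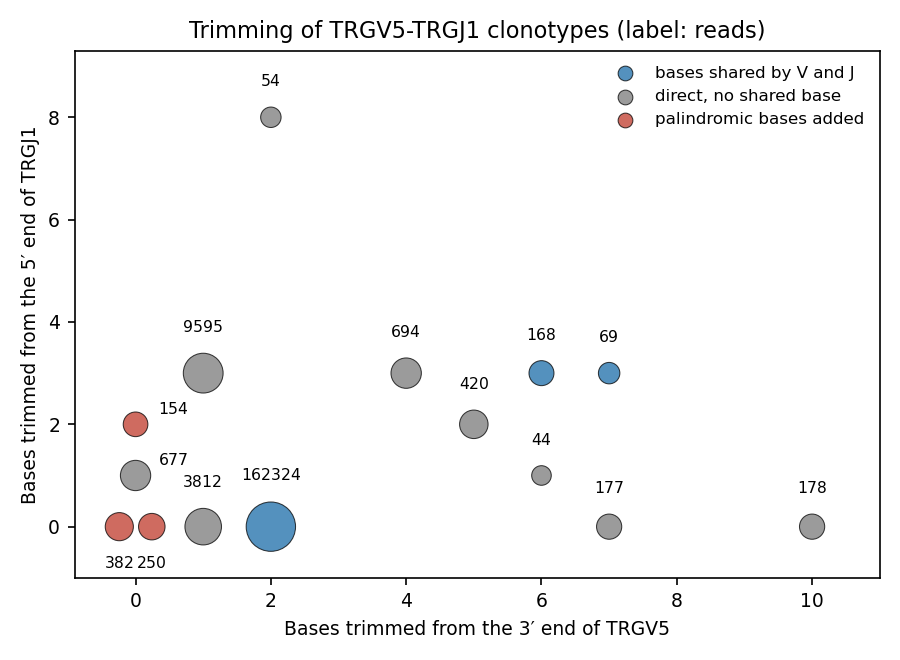
Bases lost from the 3′ end of TRGV5 (x axis) and from the 5′ end of TRGJ1 (y axis) in the 15 TRGV5-TRGJ1 clonotypes with 10 reads or more and no other bases, with shared bases counted to both segments. Point area grows with the logarithm of reads, labels give reads, colours give the kind of joint, and the points at 382 and 250 reads (0 and 0 bases lost) are drawn apart sideways. The canonical point of 162324 reads lies at 2 and 0 bases, and 6 points lie on the line of an untrimmed TRGJ1.

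All joints made by trimming alone were written out for comparison, with up to 10 bases removed from TRGV5 and up to 8 from TRGJ1, limits taken from the largest losses in the 15 clonotypes without other bases. Of 99 combinations 33 were in frame, 2 of these held a stop codon, and the rest gave 25 distinct sequences. The library listed 12 of the 25 (48.0%), each with at least 10 reads, and these held 178212 reads, or 99.4% of all TRGV5 reads. Among the 13 that were not listed was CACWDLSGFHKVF, 1 of the 3 possible sequences of 13 residues. The other 2 were the canonical sequence and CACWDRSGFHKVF, the largest and second largest clonotypes. The canonical sequence could be made in 3 ways and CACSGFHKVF in 4, the most of any, through the shared bases gct. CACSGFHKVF held 69 reads against 162324 for the canonical sequence. Whether the number of ways bears on the number of reads was not tested.

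Palindromic bases were seen at both ends. The 15-residue CDR3 of 382 reads had at between an intact TRGV5 and an intact TRGJ1, the reverse complement of the first bases of TRGJ1. The 15-residue CDR3 of 250 reads had ag at the same place, the reverse complement of the last bases of TRGV5. The smaller version of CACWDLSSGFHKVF, with 154 reads, had the single base a after an intact TRGV5 and then TRGJ1 without its first 2 bases. The larger version, with 677 reads, had no added base and differed by 1 substitution (T18A), at the joint. The amino acid sequence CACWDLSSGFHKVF thus held 831 reads. The canonical amino acid sequence was listed in 1 nucleotide version. The 20 sequences 1 substitution away that code for the same amino acids were not listed. The part of read error filtering in their absence was not tested.

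The 3 TRGV5 clonotypes of 10 reads or more with other bases were of different kinds. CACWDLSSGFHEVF (37 reads) was the 677-read sequence with the substitution A34G inside the TRGJ1 part, at 5.47% of that sequence's reads, so its joint itself held no added base. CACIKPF (24 reads), the shortest CDR3, had 9 bases that matched neither end (atcaagcct) and only the last 3 bases of TRGJ1. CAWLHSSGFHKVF (13 reads) matched TRGV5 for 5 bases only and held 8 other bases (gtggcttc) before an intact TRGJ1. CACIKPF and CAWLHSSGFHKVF together held 37 reads, 0.0206% of the TRGV5 reads (interval 0.0145 to 0.0285%).

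CDR3 length was narrow by reads and wider by clonotypes. Of the TRGV5 reads, 95.95% coded for 13 residues, 2.61% for 14, 0.805% for 12, 0.354% for 15 and 0.223% for 11. The canonical sequence and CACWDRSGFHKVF supplied nearly all reads at 13 residues. Over the 20 TRGV5 clonotypes with 10 reads or more the mean was 12.4 ± 1.88 residues (SD over clonotypes), and the numbers at 11, 12, 13, 14 and 15 residues were 3, 5, 4, 4 and 2. In the other V segments, 13 residues held 55.0% of reads (interval 52.0 to 58.0%), with 16.2% at 12 and 16.8% at 14. The mean weighted by reads was 13.02 residues in TRGV5 and 13.04 in the others. Over clonotypes of 10 reads or more it was 12.4 in TRGV5 and 12.9 in the others, and among the others the mean by reads ran from 12.8 in TRGV4 to 13.3 in TRGV1.

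**Figure D3:**
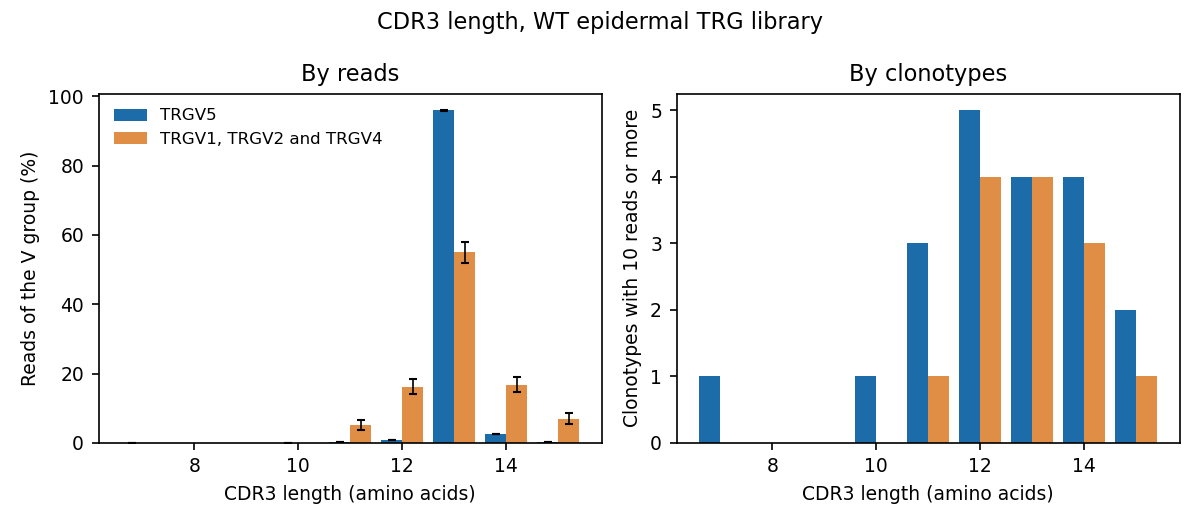
CDR3 length in amino acids (x axis) for TRGV5 (blue) and for TRGV1, TRGV2 and TRGV4 together (orange). The left panel gives the percentage of each group's reads with exact Clopper-Pearson 95% intervals, and the right panel the number of clonotypes with 10 reads or more: 95.95% of TRGV5 reads lie at 13 residues, while its clonotypes spread from 7 to 15.

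The TRGV5 joints with other J segments and the minor V segments are shown next, because each repeats or departs from a TRGV5-TRGJ1 joint. Capitals again mark bases of the J segment alone.
TRGV5-TRGJ1, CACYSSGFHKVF, 177 reads: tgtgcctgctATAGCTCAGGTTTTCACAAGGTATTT
TRGV5-TRGJ2, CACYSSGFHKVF, 93 reads: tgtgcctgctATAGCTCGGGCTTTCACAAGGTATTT
TRGV5-TRGJ3, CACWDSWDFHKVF, 27 reads: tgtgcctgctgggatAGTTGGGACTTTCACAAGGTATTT
TRGV4-TRGJ1, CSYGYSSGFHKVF, 444 reads: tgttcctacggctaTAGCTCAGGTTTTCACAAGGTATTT
TRGV4-TRGJ1, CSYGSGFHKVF, 46 reads: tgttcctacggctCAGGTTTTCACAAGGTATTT
TRGV2-TRGJ2, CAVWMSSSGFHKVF, 118 reads: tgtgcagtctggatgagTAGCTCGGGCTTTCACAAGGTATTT
TRGV1-TRGJ4, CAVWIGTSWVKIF, 75 reads: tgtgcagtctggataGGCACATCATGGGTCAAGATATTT
TRGV1-TRGJ4, 15-residue CDR3, 75 reads: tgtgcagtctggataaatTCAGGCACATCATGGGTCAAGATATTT
TRGV1-TRGJ2, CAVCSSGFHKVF, 58 reads: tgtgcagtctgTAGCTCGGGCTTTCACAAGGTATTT

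The TRGV5 reads with TRGJ2 and TRGJ3 had joints that also occurred with TRGJ1. The TRGV5-TRGJ2 clonotype lost 7 bases of TRGV5 and none of TRGJ2, the same losses as the TRGV5-TRGJ1 clonotype of the same amino acids, and its 93 reads were 52.5% of the 177 reads of that clonotype. The TRGV5-TRGJ3 clonotype had the joint of the canonical sequence. With the shared bases at counted to both segments, it lost 2 bases of TRGV5 and none of TRGJ3. TRGJ2 lies on the minus strand of the locus, opposite to TRGV5, while TRGJ3 lies on the same strand in the next cluster. Whether these transcripts came from rearranged genes or from PCR joining of separate templates was not tested.

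TRGV4 resembled TRGV5 in being dominated by 1 sequence. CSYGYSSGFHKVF held 444 of the 493 TRGV4 reads, 90.1% (interval 87.1 to 92.6%), beside 90.6% (90.4 to 90.7%) for the canonical sequence among TRGV5 reads. The inverse Simpson index, which counts the equally abundant clonotypes that would give the same diversity, was 1.22 in TRGV4 and 1.21 in TRGV5. Both TRGV4 clonotypes of 10 reads or more had joints with shared bases: a in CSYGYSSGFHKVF and gct in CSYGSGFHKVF (46 reads). With the shared base counted to both segments, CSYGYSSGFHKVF lost 3 bases of TRGV4 and none of TRGJ1. The run gct is also the one shared in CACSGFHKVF of TRGV5. The other 2 TRGV4 clonotypes held 3 reads together.

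TRGV2 and TRGV1 were the more mixed of the minor segments. The largest TRGV2 clonotype, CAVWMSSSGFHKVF with an intact TRGV2 end, held 118 of 289 reads, 40.8% (interval 35.1 to 46.7%), followed by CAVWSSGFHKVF with 82 reads and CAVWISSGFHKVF with 40. The largest TRGV1 clonotypes held 75 reads each, 24.4% (interval 19.7 to 29.5%). One of them, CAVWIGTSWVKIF, had the shared base a, and the other had the palindromic base t after an intact TRGV1 end. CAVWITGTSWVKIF (41 reads) and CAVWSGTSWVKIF (35 reads) were direct joints. The inverse Simpson index was 3.59 for TRGV2 and 5.35 for TRGV1, both above the 1.22 of TRGV4, at 289, 308 and 493 reads respectively for TRGV2, TRGV1 and TRGV4. The sequence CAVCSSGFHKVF occurred with TRGV1-TRGJ2 in 58 reads and with TRGV2-TRGJ2 in 22 reads, in different nucleotide versions. The TRGV2 version held the single base c outside both ends, the one exception among the 13 minor-segment clonotypes of 10 reads or more.

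The CDR3 alone did not separate TRGV1 from TRGV2 in many clonotypes. The germline CDR3 ends of TRGV1 and TRGV2 share their first 14 bases, and in 8 of 11 TRGV1 and 5 of 8 TRGV2 clonotypes the CDR3 matched both as far. The germline CDR3 ends of TRGV1 and TRGV3 are identical over all 17 bases. TRGV5 shares only 5 first bases with TRGV1, TRGV2 and TRGV6 and 7 with TRGV7, so only its most trimmed joints, such as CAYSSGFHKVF with 7 bases of TRGV5 left, match another V segment as far.

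Most of the rarest clonotypes lay within a few substitutions of a far more abundant one. Of the 67 clonotypes, 27 were single reads and 5 had 2 reads, and these 32 held 37 reads in all. The 33 with 10 reads or more held 99.97% of reads. Of the 32, 25 lay 2 to 4 substitutions from a clonotype of the same V, J and length with at least 100 times their reads, and none lay at 1. Transitions made up 60 of the 67 substitutions (89.6%), with T-to-C 35 times and A-to-G 16 times. These counts take the deposited J assignment. They include, for the clonotype at 4 substitutions (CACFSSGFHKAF, listed with TRGJ1), the bases at which germline TRGJ2 differs from TRGJ1. Around the canonical sequence the spacing was uneven. Of the 117 sequences 1 substitution away, only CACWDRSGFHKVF was listed, none was listed at 2 substitutions, and 11 single-read clonotypes were listed at 3. How the listed sequences were filtered for read errors is not given in the sources used here, and its part in this spacing was not tested. All 24 TRGV5 clonotypes under 10 reads held bases outside the exact matches, and over all 44 TRGV5 clonotypes 17 (38.6%) had no other base. By the deposited segment positions, which run through mismatches, 38 of the 44 (86.4%) had no inserted base.

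The gamma chain library was far less diverse than the 3 libraries of beta chains from Tcrd-/- epidermis. Its 3 largest clonotypes held 97.5% of reads, against 14.3% in library A, 9.04% in B and 43.6% in C. A single clonotype reached 50% of its reads, while 16, 29 and 4 were needed in A, B and C, and 99% of its reads were reached with 9 clonotypes, against 131, 169 and 20. Shannon entropy was 0.720 bits in the gamma chain library and 6.10, 6.80 and 3.77 bits in the beta chain libraries. At an equal depth of 43891 reads, 43.4 clonotypes were expected in the gamma chain library and 313, 405 and 72.0 in the beta chain libraries. The gamma chain value lay outside the range of the 3 libraries in each of these measures. Single reads made up 35 of the 72 clonotypes of library C and 27 of the 67 of the gamma chain library. The gap to C in clonotypes at equal depth therefore depends on counting single reads. Library C was the least diverse of the 3 and decided much of the spread: without it, the difference in clonotypes at equal depth went from -219.9 to -322.1. With 1 gamma chain library no test was made, and chain, genotype, sort and amplified locus cannot be told apart.

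**Figure D4:**
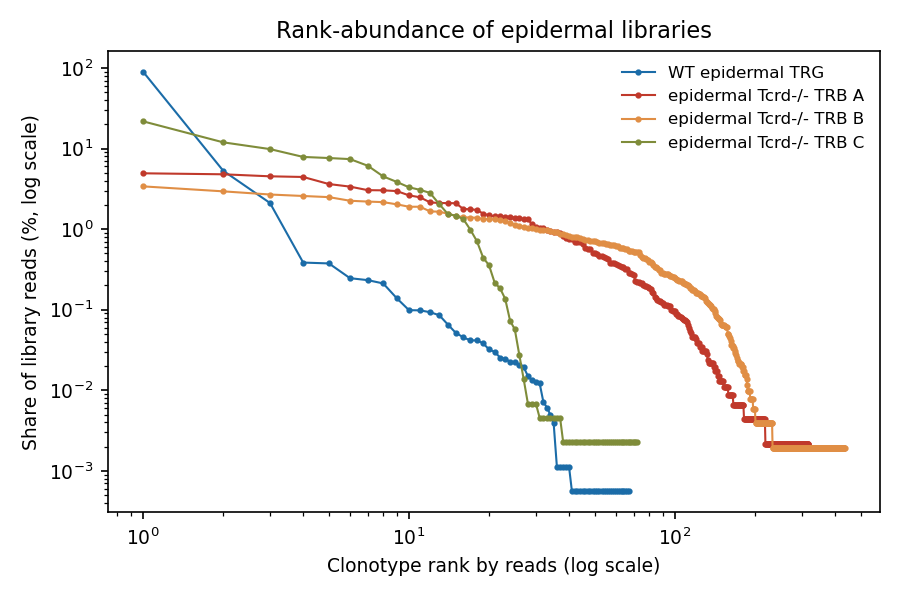
Share of library reads in percent (y axis, log scale) of each clonotype by its rank (x axis, log scale), for the wild-type epidermal gamma chain library and the 3 Tcrd-/- epidermal beta chain libraries. The gamma chain curve falls from 90.0% at rank 1 to 0.385% at rank 4, while the first clonotypes of beta chain libraries A, B and C hold 4.94, 3.40 and 21.8%.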

How the data were processed

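Per the labels' protocols, transcripts were copied by 5′ RACE, amplified and read on an Illumina MiSeq. The caller, error filter, segment reference and build behind the deposited tables are not given in the sources used here. Per the file headers, each line holds a clonotype with the authors' read count, its fraction of the library, which equalled count over total, and the positions where V ends and J starts. These positions were read as counted from 0, as they then matched the sequences. All clonotypes were in frame without a stop codon, and 0 were removed.

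Each CDR3 was matched to the longest exact V and J ends of GENCODE M21 (GRCm38) transcripts. The matching was tested on simulated joints. Intervals are exact Clopper-Pearson at 95% (scipy 1.17.1, Python 3.11.15, pandas 2.3.3). Depth was 180315 reads, and 43891 to 51359 in the beta chain libraries.

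Members and lists were chosen with earlier results of these data known. Named were the 10 largest TRGV5 clonotypes, the 3 largest of each other V, the largest of each V-J pair, the longest and shortest TRGV5 CDR3, and versions of the canonical CDR3, with at least 10 reads where a minimum applied. The others named were chosen after their values were seen: those with other bases or rare trims, and unlisted joints. Alternatives were read minimums of 2 and 10, merging of near neighbours, amino acid clonotypes, read weighting, the reference match, a depth of 1000 reads and leaving out each beta chain library. The 6 other libraries were not used here.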

Additional observations from a re-analysis of the deposited data

How the results depend on the processing

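Of 48 alternative values, 42 stayed within the counting interval, the spread of the values or 1.5 times a count, and 6 moved. For shares of clonotypes the counting interval ran over clonotypes, which are not replicates. A change of direction could be scored only for the gamma minus beta differences, and none changed direction. The number of clonotypes went from 67 to 40 with at least 2 reads, to 33 with at least 10 reads, and to 41 when neighbours of up to 5 substitutions with at least 100 times the reads were merged, an alternative chosen after seeing the data. Merging neighbours of 1 substitution changed no value, since no clonotype lay 1 substitution from one with at least 100 times its reads. The values of this merging are among the 42 and could not have moved. The share of TRGV5 clonotypes with no inserted base went from 86.4% to 99.98% when weighted by reads and to 38.6% by exact match to the reference ends. For TRGV5 clonotypes of 10 reads or more, the share with only germline and palindromic bases was 85.0%, and 38.6% over every listed clonotype, also chosen after seeing the data. Leaving out 1 beta chain library at a time, the gamma minus mean beta difference in the share of the 10 largest clonotypes ran from 38.3 to 68.1 percentage points, in log2 inverse Simpson index from -5.62 to -4.12, and in clonotypes at equal depth from -322.1 to -149.1. The last difference was -219.9 with all libraries, -125.2 with at least 2 reads and -81.8 at a depth of 1000 reads. No paired analysis was possible because the gamma chain library is a single library with no counterpart and none of these values comes from a test. Shares of up to 0.00166% (3 counts) may be missed at this depth, and amplification bias between primers or segments cannot be read from these tables.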
